A study of Bos taurus with 29 samples.

Results

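Solute carriers are the membrane proteins that move sugars, amino acids, nucleosides, metals, ions and vitamins into and out of cells and organelles, by facilitated diffusion or by coupling to a sodium, proton or other gradient. The genes described here are the rows of the expression table whose symbol begins with SLC and a digit, other than the mitochondrial SLC25A family, that reached at least 1 CPM (read counts scaled to the library total) in at least 6 oocytes. Of 223 such rows, 188 passed, among 11852 genes that passed in all. By family number, 184 fell into 19 substrate classes, and 4 are not carriers: SLC9A3R1 and SLC4A1AP, which are adaptor proteins, and SLC2A4RG and SLC7A6OS. The mammalian oocyte relies on the surrounding cumulus cells for part of its supply, since it uses glucose poorly and takes up pyruvate, nucleotides and certain amino acids made available through the cumulus cells and gap junctions.

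The oocytes came from FSH-treated wild-type donor cattle, and each library is 1 oocyte. Germinal vesicle (GV) oocytes, still in meiotic arrest, were stripped of cumulus cells at collection (7 oocytes). IVM oocytes were cultured as cumulus-oocyte complexes for 22 h in TCM199 with serum, glutamine, pyruvate, EGF and FSH, and were taken as metaphase II oocytes with a polar body (8 oocytes). CNP_IVM oocytes were exposed beforehand, for 6 h, to C-type natriuretic peptide (CNP, 200 nM), which keeps cyclic GMP high and so holds meiotic arrest, in that medium without EGF, and then had the same 22 h of maturation (7 oocytes). CNP, the absence of EGF in the first 6 h and the longer culture of 28 h in all cannot be told apart. The labels name no donor or culture, and several oocytes may come from 1 animal, so every group is treated as a single sample: values are the median with the lowest and highest oocyte in parentheses, differences are log2 ratios of group means with 1 CPM added, and there are no p-values.

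Library totals ran from 20159662 to 39340040 reads. GV replicate 9 is titled GV while its treatment label reads in vitro maturation, and it stood apart: 125 of the carrier genes reached 1 CPM in it against 170 to 180 in the other 6 GV oocytes, and its median Spearman correlation with the other GV oocytes over the 188 genes was 0.63, where theirs were 0.92 to 0.94. It was kept with GV by its title, and values are also given without it for some genes and lists. Where none is given, GV replicate 9 may still have moved the value. The genes at 1 CPM numbered 126 to 159 in IVM and 130 to 142 in CNP_IVM oocytes, with replicates 5, 6 and 7 the lowest of IVM (126 to 136). The oocyte markers summed to at least 31508 CPM in every library. Cumulus and granulosa markers, 13 of which passed the filter, summed to 677 to 1215 CPM in GV oocytes, 415 to 717 CPM after IVM and 265 to 352 CPM after CNP_IVM. Of them 3 were at least 2-fold higher and 4 lower after IVM, and 2 and 6 after CNP_IVM. STAR, of steroid synthesis, was at 629 CPM (547 to 844) in GV oocytes, 326 CPM (175 to 452) after IVM and 90.8 CPM (78.6 to 117) after CNP_IVM. HAS2 and PTGS2, genes of cumulus expansion, were on the higher side. HAS2 was at 14.04 CPM (9.78 to 25.97) in GV oocytes, 76.6 CPM (61.1 to 94.8) after IVM and 115 CPM (98.3 to 149.6) after CNP_IVM. PTGS2 was at 8.75 CPM (5.47 to 44.2) in GV oocytes, 39.8 CPM (12.5 to 54.5) after IVM and 30.96 CPM (19.6 to 79.05) after CNP_IVM. The FSH receptor gene FSHR had a mean of 0.275 CPM in GV oocytes. Blood and immune markers, 2 of which passed, summed to 170 to 361, 5.65 to 46.6 and 3.53 to 25.7 CPM in the same order. VWF had means of 225, 21.1 and 11.2 CPM and CD3E had 29.4, 3.55 and 1.27 CPM. The part of these markers in the differences below was not tested.

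After conventional maturation, 31 of the 188 genes were higher than in GV oocytes by at least 2-fold and 55 were lower by as much. Over all 11852 genes the shares were 15.9% higher and 33% lower, so that the counts for the carriers, 16.5% and 29.3%, lay close to them. In 18 genes every IVM oocyte was above every GV oocyte (11.5% of all genes), and in 23 every IVM oocyte was below (19.9% of all genes). The median log2 difference was -0.40 for the carriers and -0.28 for all genes. With trimmed-mean (TMM-like) scaling in place of library totals the medians were -0.18 and -0.07, so small differences on this scale follow the scaling. Without GV replicate 9 the counts at 2-fold were 29 higher and 51 lower, against 16.4% and 31.7% of all genes. Those of groups that did not overlap were 22 above and 37 below, against 14% and 25.6%.

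CNP_IVM oocytes shared the GV oocytes as their comparison. Of the 188 genes, 25 were higher by at least 2-fold and 82 lower by as much, where 15.3% and 42% of all genes were, with 23 and 77 without GV replicate 9. In 15 genes every CNP_IVM oocyte was above every GV oocyte (12.9% of all genes) and in 45 every one was below (28% of all genes), and without GV replicate 9 in 18 and 64 (15.1% and 36.1% of all genes). The medians were -0.71 for the carriers and -0.61 for all genes, and -0.27 and -0.17 with trimmed-mean scaling. The reads of the 188 genes summed to 5312 CPM (5053 to 5711) in GV oocytes, 6354 CPM (5996 to 7421) after IVM and 4518 CPM (4180.4 to 5256) after CNP_IVM. Every IVM oocyte thus held more than every oocyte of the other groups, while the order of GV and CNP_IVM turned with trimmed-mean scaling, under which their means were 4453 and 5620 CPM. A summed CPM weighs long transcripts more, since transcript lengths were not used here.

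The 106 genes with a mean of at least 5 CPM over all oocytes were also counted alone. Of these, 28 (26.4%) were at least 2-fold higher after IVM and 25 (23.6%) lower, against 20.3% and 30.5% of the 8556 genes at that level, with medians of 0.18 and -0.03. After CNP_IVM, 22 (20.8%) were higher and 39 (36.8%) lower, near the 19.99% and 38.8% of all genes at that level, with a median of -0.11 against -0.35. The plot of differences by substrate class shows that the carrier family held classes on both sides of zero. Counts by class and by list below are to be read beside the shares of all 11852 genes at 2-fold. Those shares were 15.9% higher and 33% lower after IVM, and 15.3% and 42% after CNP_IVM.

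**Figure D1:**
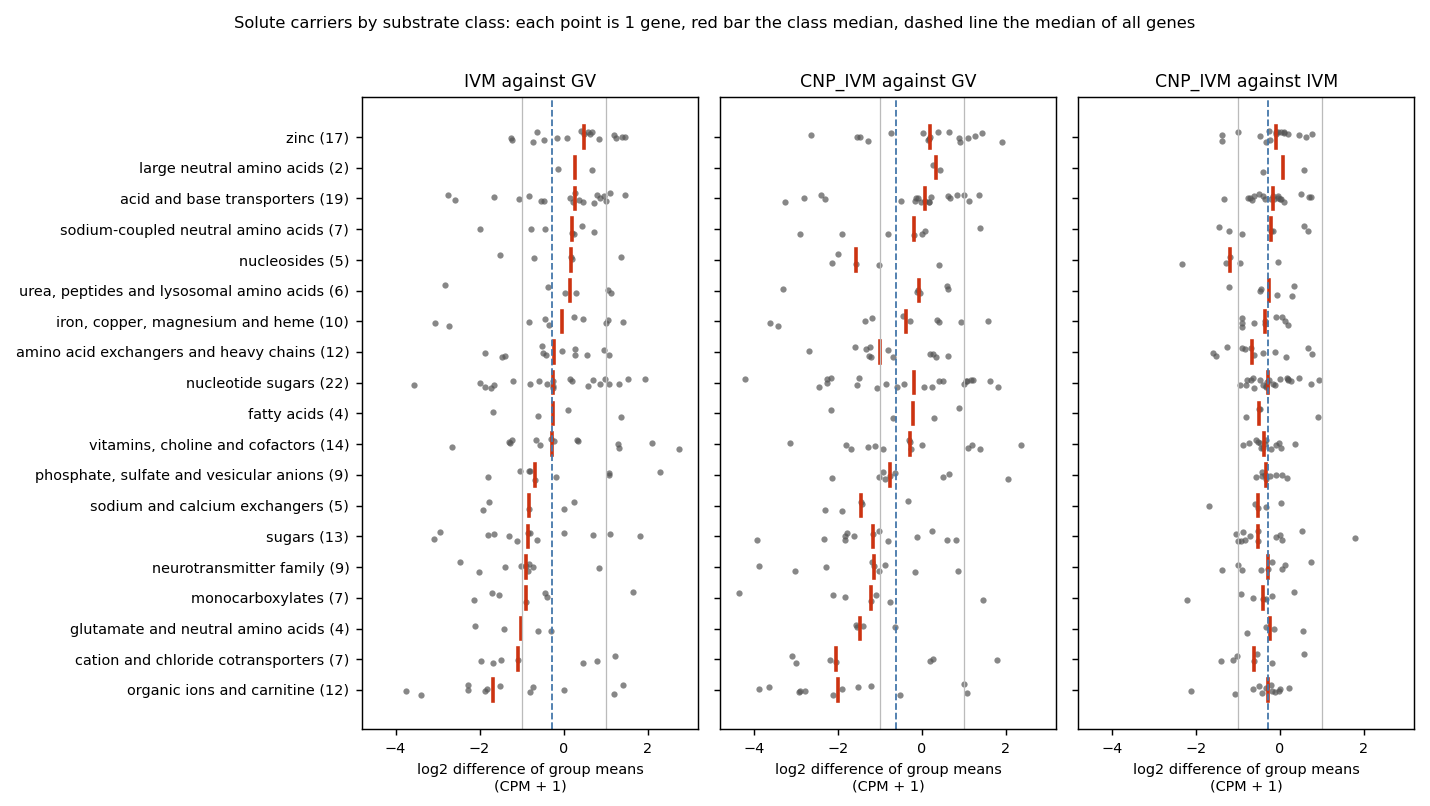
Log2 difference of group means (CPM + 1) on the x axis for each of 184 carrier genes (grey points, number per class in brackets) in 19 substrate classes, for 3 comparisons. Red bars are class medians, the dashed line is the median of all genes past the filter, and thin lines mark 2-fold: for IVM against GV the medians run from 0.49 (zinc) to -1.68 (organic ions), and for CNP_IVM against GV from 0.35 (SLC43, 2 genes) to -2.03 (SLC12).

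Amino acid carriers supply the oocyte with arginine, glutamine, proline and cystine, the last for glutathione. The SLC3 and SLC7 exchangers (12 genes) had 1 gene at least 2-fold higher and 3 lower after IVM. After CNP_IVM 0 were higher and 6 lower (5 lower without GV replicate 9). SLC7A3, the cationic amino acid transporter CAT-3, was at 1093 CPM (216 to 1188) in GV oocytes, 1097 CPM (775 to 1719.7) after IVM and 351 CPM (126 to 744) after CNP_IVM. The low GV value was that of replicate 9; the other 6 GV oocytes spanned 962 to 1188 CPM. All 7 CNP_IVM oocytes lay below all 8 IVM oocytes, and the log2 difference was -1.59 between them, 0.27 for IVM against GV and -1.32 for CNP_IVM against GV. Pooled over oocytes, SLC7A3 had 299335 reads, or 1133 CPM (95% Poisson interval 1129 to 1137) in IVM and 102567 reads, or 390.4 CPM (95% Poisson interval 388 to 393) in CNP_IVM; such intervals cover counting error only, and are far narrower than the spread between oocytes.

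SLC3A2, the heavy chain that carries exchangers such as SLC7A5 to the cell surface, was at 224 CPM (180.4 to 374) in GV oocytes, 404 CPM (165 to 566) after IVM and 149.9 CPM (102 to 237) after CNP_IVM. Its log2 difference of CNP_IVM against IVM was -1.25, but the groups overlapped, because IVM replicates 5, 6 and 7 held 174, 183 and 165 CPM. SLC7A5 itself was below the filter. The light chains of intestinal and renal amino acid exchange were lower at metaphase II. SLC7A9, the cystine and cationic amino acid light chain, was at 41.5 CPM (25.1 to 67.1) in GV oocytes, 10.1 CPM (0.248 to 22.2) after IVM and 4.97 CPM (2.88 to 8.46) after CNP_IVM, and its row overlaps TDRD12. SLC7A7, the y+LAT1 light chain, was at 24.8 CPM (20.5 to 31.9) in GV oocytes, 7.95 CPM (5.11 to 15.01) after IVM and 9.06 CPM (3.78 to 18.2) after CNP_IVM. For both genes no metaphase II oocyte reached the lowest GV oocyte, and the log2 differences were -1.86 and -1.40 after IVM and -2.69 and -1.26 after CNP_IVM. The cystine and glutamate exchanger gene SLC7A11 was at 5.14 CPM (3.73 to 13.1) in GV oocytes, 3.61 CPM (2.17 to 7.75) after IVM and 3.28 CPM (0.550 to 4.62) after CNP_IVM, with log2 differences of -0.41 and -0.81.

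The widest gap among the sodium- and chloride-coupled SLC6 carriers was in SLC6A20, which transports proline and other imino acids. It was at 254 CPM (221 to 291) in GV oocytes, 33.2 CPM (13.9 to 143) after IVM and 15.99 CPM (8.50 to 31.2) after CNP_IVM. The other 7 IVM oocytes lay at 44.6 CPM or below, whereas replicate 8 held 143 CPM, still under every GV oocyte. The log2 differences were -2.48 for IVM and -3.86 for CNP_IVM. SLC6A20 also had the least spread in GV oocytes among the 86 members with a mean of at least 10 CPM there. Its coefficient of variation was 9.79% over 7 oocytes. Of the 9 genes of this class, 4 were at least 2-fold lower after IVM and 6 after CNP_IVM, and none was 2-fold higher. The creatine transporter gene SLC6A8 was on the other side of zero at 11.5 CPM (7.56 to 16.3) in GV oocytes, 24.1 CPM (9.80 to 31.4) after IVM and 20.8 CPM (9.99 to 37.5) after CNP_IVM, with differences of 0.83 and 0.87 that did not reach 2-fold and overlapping groups. The glycine transporter gene SLC6A5 was at 21.2 CPM (19.5 to 60.98) in GV oocytes, 16.6 CPM (8.97 to 24.9) after IVM and 9.999 CPM (6.69 to 23.2) after CNP_IVM, and its differences were -0.72 (-0.40 without GV replicate 9) and -1.18 (-0.86 without GV replicate 9). SLC6A9, the other glycine transporter, was below the filter.

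SLC1A5 and SLC1A4 exchange small neutral amino acids, glutamine among the substrates of SLC1A5. SLC1A5 was at 109.8 CPM (81.4 to 308) in GV oocytes, 45.1 CPM (16.3 to 117) after IVM and 38.5 CPM (24.2 to 74.5) after CNP_IVM, with the highest value again that of GV replicate 9 and the other GV oocytes at 81.4 to 152 CPM. Its log2 differences were -1.42 (-1.07 without GV replicate 9) and -1.55 (-1.21 without GV replicate 9), and all CNP_IVM oocytes lay below all GV oocytes while IVM oocytes overlapped them. In IVM replicates 5, 6 and 7 SLC1A5 held 24.9, 23.8 and 16.3 CPM, the 3 lowest of the group. SLC1A4 was at 21.6 CPM (19.4 to 40.3) in GV oocytes, 13.6 CPM (6.32 to 31.9) after IVM and 9.82 CPM (2.16 to 11.3) after CNP_IVM, with log2 differences of -0.62 and -1.41, and here too CNP_IVM and GV oocytes did not overlap.

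Members of the SLC38 family of sodium-coupled neutral amino acid transporters parted in CNP_IVM oocytes. SLC38A6 was at 18.7 CPM (0.654 to 25.4) in GV oocytes, 28.3 CPM (22.4 to 40.3) after IVM and 48.2 CPM (42.1 to 57.3) after CNP_IVM, and every CNP_IVM oocyte was above every IVM and every GV oocyte. It was the only one of the 188 genes that lay wholly above IVM, where 1.38% of all genes did, and its log2 difference from IVM was 0.67, short of 2-fold. SLC38A8 was at 79.7 CPM (39.8 to 223) in GV oocytes, 73.4 CPM (17.1 to 122) after IVM and 21.9 CPM (15.5 to 40.2) after CNP_IVM, its row overlaps NECAB2, and its difference from IVM was -1.45. SLC38A9, the lysosomal carrier that reports arginine to the mTORC1 kinase, was at 26.4 CPM (18.7 to 37.3) in GV oocytes, 39.3 CPM (16.4 to 47.6) after IVM and 11.5 CPM (7.17 to 28.2) after CNP_IVM. Its differences were 0.42 after IVM, -0.79 after CNP_IVM against GV and -1.22 between the cultures. Within CNP_IVM, replicates 1, 4 and 5 held 17.4, 21.7 and 28.2 CPM, the 3 highest. SLC38A3, a glutamine carrier, was above 10 CPM only in GV replicate 9 (42.8 CPM), and the other 21 oocytes held at most 5.17 CPM. SLC38A1 and SLC38A2 were not analysed here. SLC15A4, the lysosomal histidine and peptide carrier, was at 67.2 CPM (39.8 to 122) in GV oocytes, 69.9 CPM (27.4 to 156) after IVM and 71.7 CPM (35.04 to 132) after CNP_IVM, with log2 differences of 0.02 and -0.04 from GV.

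**Figure D2:**
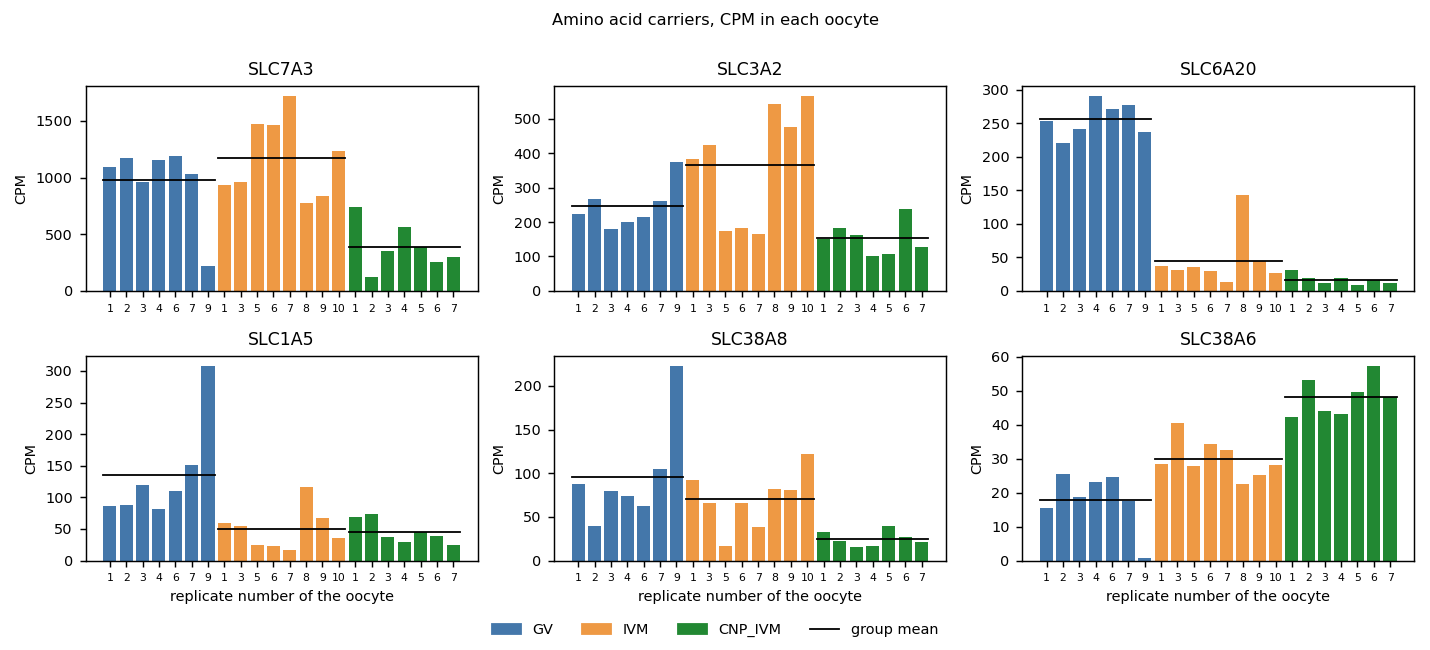
CPM of 6 amino acid carrier genes (y axis, from 0) in each oocyte (x axis, replicate number), coloured by group, with a black line at the group mean. SLC7A3 is lower in all 7 CNP_IVM oocytes than in any IVM oocyte, SLC38A6 is higher in all 7, and SLC6A20 is 221 to 291 CPM in GV oocytes and at most 143 CPM elsewhere.

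Genes that sense or respond to amino acids were examined as a separate list of 20 genes past the filter, none of them a carrier. Most act through mTORC1, while EIF2AK4 and ATF4 belong to the amino acid stress response. After IVM 3 (15%) were at least 2-fold higher and 4 (20%) lower, against 15.9% and 33% of all genes, and after CNP_IVM 4 (20%) were higher and 6 (30%) lower, against 15.3% and 42%. Subunits of the Ragulator complex, which anchors mTORC1 control to the lysosome, made up 3 of those lower. LAMTOR4 was at 264 CPM (147 to 321) in GV oocytes, 7.55 CPM (2.71 to 9.90) after IVM and 5.57 CPM (3.14 to 8.06) after CNP_IVM. LAMTOR2 was at 269.8 CPM (241 to 302) in GV oocytes, 8.88 CPM (4.63 to 17.6) after IVM and 3.43 CPM (1.74 to 6.41) after CNP_IVM. LAMTOR1 was at 29.4 CPM (20.9 to 76.6) in GV oocytes, 9.61 CPM (7.31 to 18.002) after IVM and 4.62 CPM (1.64 to 7.71) after CNP_IVM. LAMTOR4 and LAMTOR2 had log2 differences of -4.91 and -4.59 after IVM. The other Ragulator subunits did not reach 2-fold, LAMTOR3 with -0.49 and -0.74 and LAMTOR5 with -0.43 and 0.32 after IVM and CNP_IVM. RRAGC, a Rag GTPase, had the opposite sign, at 37.9 CPM (29.8 to 60.8) in GV oocytes, 64.5 CPM (48.4 to 94.6) after IVM and 158 CPM (72.3 to 237) after CNP_IVM, and its log2 difference of CNP_IVM against IVM was 1.29. FNIP2, a folliculin partner, was at 15.6 CPM (2.09 to 54.7) after IVM but 4.28 CPM (1.13 to 9.56) after CNP_IVM. ATF4, the amino acid stress factor, was at 149 CPM (134 to 359) in GV oocytes, 77.9 CPM (43.5 to 132) after IVM and 45.3 CPM (34.8 to 63.98) after CNP_IVM.

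Sugar carriers were lower on balance, as were genes at large. Of 13 genes, 2 (15.4%) were at least 2-fold higher and 6 (46.2%) lower after IVM, against 15.9% and 33% of all genes. After CNP_IVM 0 were higher and 8 (61.5%) lower, against 15.3% and 42%. Their medians of -0.85 and -1.16, against -0.28 and -0.61 for all genes, stayed below zero under both other scalings. Without GV replicate 9 the sugar carriers had 2 higher and 5 lower after IVM, and 0 higher and 7 lower after CNP_IVM. SLC2A8, the intracellular glucose transporter GLUT8, was at 34.4 CPM (13.002 to 58.6) in GV oocytes, 2.18 CPM (0.108 to 8.64) after IVM and 0.899 CPM (0.224 to 2.80) after CNP_IVM, with no metaphase II oocyte inside the GV range and log2 differences of -3.09 and -3.92. SLC2A1, the widespread glucose transporter GLUT1, was at 15.5 CPM (3.88 to 20.9) in GV oocytes, 6.95 CPM (0.206 to 10.8) after IVM and 2.91 CPM (0.431 to 7.04) after CNP_IVM, with log2 differences of -1.11 and -1.84 and overlapping groups. SLC2A3, the GLUT3 gene, stayed under 9 CPM in every oocyte.

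SLC2A4, the insulin-responsive transporter GLUT4, was the only one of the 188 genes at least 2-fold higher in CNP_IVM than in IVM oocytes, where 1.86% of all genes were. It was at 16.2 CPM (5.45 to 29.5) in GV oocytes, 1.72 CPM (0.481 to 3.18) after IVM and 5.40 CPM (2.41 to 16.2) after CNP_IVM. Every IVM oocyte was below every GV oocyte, and the log2 difference was -2.94. CNP_IVM replicates 1, 2 and 3 held 13.02, 16.2 and 10.7 CPM, and replicates 4, 5, 6 and 7 held 2.83, 5.40, 4.46 and 2.41 CPM. Replicates 4 and 7 lie within the IVM range and replicates 5 and 6 above it. The log2 difference of 1.78 between the cultures thus rests in part on replicates 1, 2 and 3. SLC37A3, of the sugar phosphate family, was higher in every IVM oocyte than in every GV oocyte, at 14.2 CPM (2.21 to 20.1) in GV oocytes, 45.9 CPM (31.7 to 90.5) after IVM and 25.1 CPM (10.6 to 46.2) after CNP_IVM, and its row overlaps RAB19. SLC5A1, the sodium-glucose transporter SGLT1, was at 20.2 CPM (13.7 to 21.95) in GV oocytes, 36.5 CPM (21.01 to 88.5) after IVM and 22.9 CPM (15.5 to 32.01) after CNP_IVM.

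SLC16A1, the lactate and pyruvate transporter MCT1, was at 132 CPM (97.7 to 160.3) in CNP_IVM oocytes, a log2 difference of 1.45 from GV and -0.20 from IVM. It had the least spread in IVM oocytes among the 68 members with a mean of at least 10 CPM there, with a coefficient of variation of 13.9% over 8 oocytes. Its neighbour in the family SLC16A13 went the other way, at 36.8 CPM (34.8 to 92.96) in GV oocytes, 6.58 CPM (2.36 to 29.2) after IVM and 1.36 CPM (0.257 to 3.54) after CNP_IVM, and its log2 difference of CNP_IVM against GV was -4.34, the lowest of the 188 genes. Of 7 monocarboxylate carriers, 1 was at least 2-fold higher and 3 lower after IVM, and 1 higher and 5 lower after CNP_IVM. SLC16A7 was not analysed here and SLC16A3 was below the filter. Of the accessory proteins of MCT1, BSG was at 38.5 CPM (33.6 to 143) in GV oocytes, 39.96 CPM (16.1 to 53.4) after IVM and 14.03 CPM (9.67 to 29.9) after CNP_IVM and NPTN at 26.2 CPM (21.5 to 34.8) in GV oocytes, 91.5 CPM (43.6 to 112) after IVM and 84.4 CPM (50.3 to 99.3) after CNP_IVM, with log2 differences after CNP_IVM of -1.85 (-1.50 without GV replicate 9) and 1.52.

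Enzymes that use these substrates were taken from a list of 9 genes past the filter. Of these, 1 was at least 2-fold higher and 4 lower after IVM (1 and 3 without GV replicate 9). After CNP_IVM 0 were higher and 7 lower (0 and 4 without GV replicate 9). HK1, which phosphorylates glucose, was at 208 CPM (153 to 289) in GV oocytes, 21.2 CPM (17.5 to 37.01) after IVM and 18.96 CPM (14.3 to 24.3) after CNP_IVM. LDHB, which favours lactate oxidation, was at 313 CPM (139 to 345) in GV oocytes, 19.1 CPM (12.4 to 37.2) after IVM and 11.5 CPM (5.05 to 19.9) after CNP_IVM. LDHA was at 838 CPM (679 to 1431) in GV oocytes, 295 CPM (141 to 442) after IVM and 220.4 CPM (182 to 318) after CNP_IVM. For all 3 genes no metaphase II oocyte reached the GV range.

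Nucleoside carriers bring in preformed bases for nucleotide salvage. SLC29A1, the equilibrative transporter ENT1, was at 35.8 CPM (14.5 to 152) in GV oocytes, 47.8 CPM (21.6 to 112) after IVM and 11.2 CPM (5.97 to 15.98) after CNP_IVM, and all 7 CNP_IVM oocytes lay below all 8 IVM oocytes. Its log2 difference of -2.34 between the cultures was the lowest of the 188 genes. Only SLC29A1 and SLC7A3 lay wholly below IVM, where 2.6% of all genes did. GV replicate 9 had the top GV value, and the other GV oocytes held 14.5 to 44.4 CPM, so the difference of CNP_IVM against GV was -2.15 (-1.58 without GV replicate 9). Within IVM, replicates 8, 9 and 10 held 112, 92.2 and 92.7 CPM, and replicates 5, 6 and 7 held 25.8, 23.6 and 21.6 CPM.

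The sodium-coupled pyrimidine carrier gene SLC28A1 was at 35.6 CPM (17.9 to 192) in GV oocytes, 161 CPM (32.5 to 271) after IVM and 43.8 CPM (17.03 to 155) after CNP_IVM. Without GV replicate 9, at 192 CPM, the GV oocytes spanned 17.9 to 60.9 CPM, and the log2 difference of IVM against GV was 1.36 (2.02 without GV replicate 9). CNP_IVM replicates 1, 4 and 5 held 132, 141 and 155 CPM, while the other 4 lay at 43.8 CPM or below. The same 3 oocytes were the highest of their group for SLC18A2, the vesicular monoamine transporter VMAT2, at 298, 253 and 279 CPM against 69.6 to 99.9 CPM in the other 4, a split seen in the values and not given by any label. Over the groups SLC18A2 was at 85.8 CPM (19.6 to 137) in GV oocytes, 201 CPM (82.4 to 374) after IVM and 99.9 CPM (69.6 to 298) after CNP_IVM. SLC28A3, which takes purines and pyrimidines, was at 19.9 CPM (11.1 to 26.4) in GV oocytes, 21.2 CPM (13.7 to 35.5) after IVM and 8.60 CPM (2.40 to 22.2) after CNP_IVM, with a difference of -1.20 between the cultures.

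**Figure D3:**
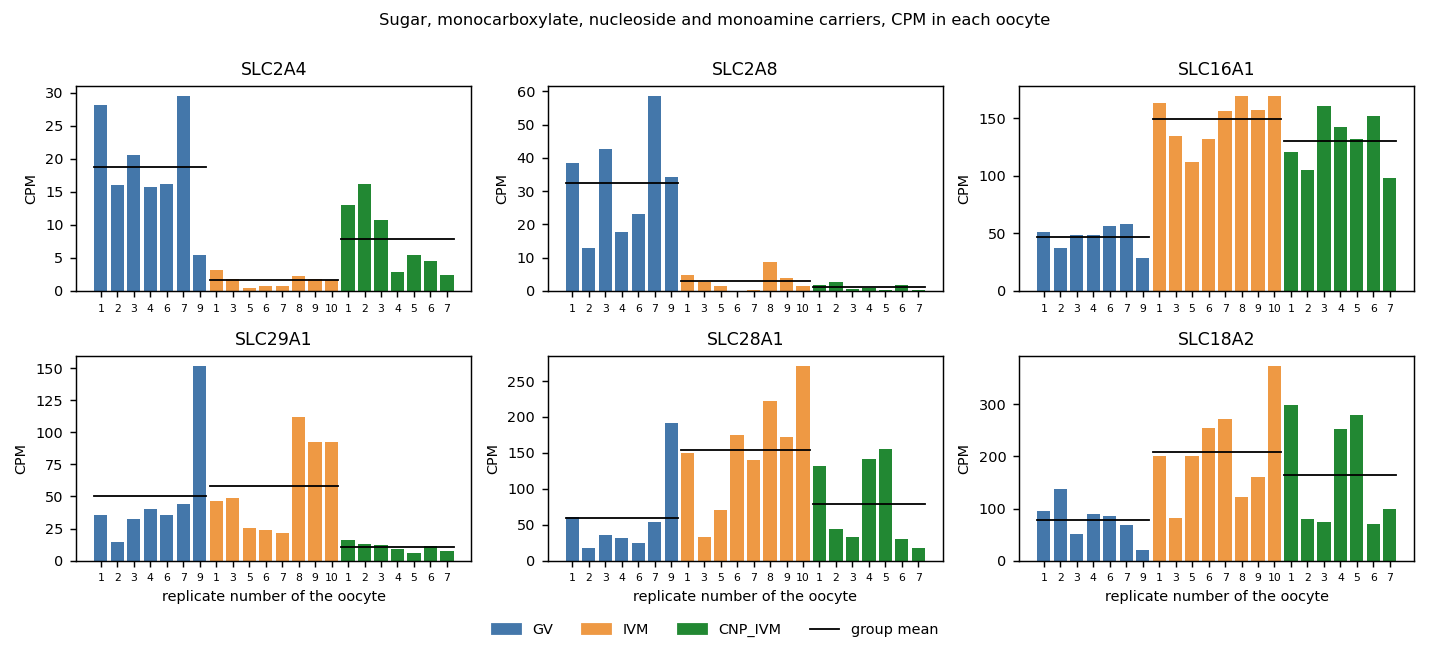
CPM of 6 carrier genes (y axis, from 0) in each oocyte (x axis, replicate number), coloured by group, with a black line at the group mean. SLC29A1 is 5.97 to 15.98 CPM in CNP_IVM and 21.6 to 112 CPM in IVM oocytes, and CNP_IVM replicates 1, 4 and 5 are the highest of their group for SLC28A1 and SLC18A2.

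Zinc enters the cytosol through SLC39 (ZIP) proteins and leaves it through SLC30 (ZnT) proteins. In the mouse, maturing oocytes take up zinc to reach and hold metaphase II arrest and release it at activation. The 17 zinc carrier genes summed to 229 to 384 CPM in GV oocytes, 449 to 748 CPM after IVM and 509 to 786 CPM after CNP_IVM, so no metaphase II oocyte overlapped the GV range. In each comparison with GV, 4 genes were at least 2-fold higher, with 2 lower after IVM and 4 after CNP_IVM; without GV replicate 9 the counts were 7 higher and 1 lower, and 7 higher and 3 lower. The class medians of 0.49 and 0.19 stayed above zero under both other scalings.

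SLC39A10, a zinc importer of the plasma membrane, was at 66.9 CPM (37.1 to 103) in GV oocytes, 193 CPM (125 to 279.8) after IVM and 249 CPM (196 to 362) after CNP_IVM, with log2 differences of 1.45 and 1.91; its row overlaps DNAH7. SLC39A12, another importer, was at 52.8 CPM (42.97 to 89.5) in GV oocytes, 138 CPM (102 to 205) after IVM and 112 CPM (72.2 to 149.8) after CNP_IVM, with differences of 1.38 and 0.91 (1.06 without GV replicate 9). SLC30A9, which lets zinc out of mitochondria, was at 55.3 CPM (51.8 to 81.5) in GV oocytes, 137 CPM (102 to 179) after IVM and 149 CPM (126 to 163) after CNP_IVM, with differences of 1.25 and 1.27. For these 3 genes GV and IVM oocytes did not overlap, and for SLC39A10 and SLC30A9 GV and CNP_IVM oocytes did not either. SLC30A9 had the least spread in CNP_IVM oocytes among the 60 members with a mean of at least 10 CPM there. Its coefficient of variation was 7.89%. SLC39A6, which pairs with SLC39A10 in the mouse, was at low levels, 3.11 CPM (1.13 to 16.9) in GV oocytes, 7.50 CPM (3.33 to 12.7) after IVM and 5.60 CPM (2.88 to 11.99) after CNP_IVM. The exporter gene SLC30A1 was at 0.702 CPM (0.290 to 6.68) in GV oocytes, 2.88 CPM (1.29 to 5.00002) after IVM and 2.43 CPM (0.873 to 5.45) after CNP_IVM. In both, GV replicate 9 had the highest value, and the other 6 GV oocytes held 1.13 to 3.57 and 0.290 to 1.14 CPM. SLC39A7, which releases zinc from the endoplasmic reticulum, had 54.8 CPM in GV replicate 9 and 1.01 to 4.82 CPM in the other GV oocytes. Its log2 difference of IVM against GV was -1.26 with that oocyte and 0.22 without it, so no direction is given for that comparison. After CNP_IVM it was at 0.719 CPM (0.211 to 1.26), with a difference from GV of -2.65 (-1.16 without GV replicate 9) at low levels and overlapping groups.

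Among the other metals, the copper importer gene SLC31A1 was at 4.84 CPM (0 to 9.59) in GV oocytes, 13.5 CPM (8.78 to 21.6) after IVM and 15.6 CPM (8.40 to 26.1) after CNP_IVM, with log2 differences of 1.40 and 1.58. SLC31A2, its relative in endosomes, was at 61.8 CPM (48.9 to 72.8) in GV oocytes, 132 CPM (74.9 to 188) after IVM and 77.03 CPM (44.9 to 116) after CNP_IVM, and GV and IVM oocytes did not overlap. The iron exporter ferroportin, SLC40A1, was at 84.2 CPM (49.2 to 100.03) in GV oocytes, 102 CPM (44.001 to 128) after IVM and 102 CPM (47.1 to 143) after CNP_IVM, with differences of 0.24 and 0.35. The iron importer DMT1, SLC11A2, was at 28.2 CPM (20.7 to 40.03) in GV oocytes, 21.6 CPM (9.92 to 36.3) after IVM and 11.5 CPM (4.96 to 17.5) after CNP_IVM, and CNP_IVM oocytes lay wholly below GV oocytes. SLC48A1, a heme carrier of endosomes and lysosomes, was at 19.01 CPM (11.5 to 24.6) in GV oocytes, 0.871 CPM (0 to 3.08) after IVM and 0.431 CPM (0.128 to 1.68) after CNP_IVM, with log2 differences of -3.07 and -3.42; its row overlaps HDAC7.

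Of 15 genes that bind or sense these metals, 4 (26.7%) were at least 2-fold higher and 8 (53.3%) lower in each comparison with GV. All genes had 15.9% higher and 33% lower after IVM, and 15.3% and 42% after CNP_IVM. Without GV replicate 9 the counts were 4 and 7 after IVM and 3 and 7 after CNP_IVM. The metallothionein gene MT2A had differences of -1.01 (0.81 without GV replicate 9) and -1.71 (0.12 without it). The copper chaperone ATOX1 was at 96.9 CPM (79.9 to 128) in GV oocytes, 3.93 CPM (1.93 to 12.3) after IVM and 3.07 CPM (1.64 to 8.67) after CNP_IVM and the metallothionein MT3 at 177 CPM (147 to 463) in GV oocytes, 22.3 CPM (16.2 to 48.8) after IVM and 24.5 CPM (14.9 to 40.9) after CNP_IVM, with no metaphase II oocyte in the GV range for either. Ferritin heavy chain FTH1 was at 1185 CPM (834 to 1729.5) in GV oocytes, 383 CPM (138 to 588) after IVM and 229 CPM (129 to 299) after CNP_IVM. On the higher side, IREB2, which binds iron-responsive elements in messenger RNA, was at 7.02 CPM (0.163 to 10.7) in GV oocytes, 26.5 CPM (19.95 to 32.2) after IVM and 42.5 CPM (33.9 to 61.8) after CNP_IVM, the transferrin receptor TFRC at 11.2 CPM (5.89 to 24.4) in GV oocytes, 38.1 CPM (21.8 to 106) after IVM and 24.2 CPM (7.32 to 72.2) after CNP_IVM, and the zinc-sensing factor MTF1 at 10.5 CPM (8.44 to 16.6) in GV oocytes, 23.005 CPM (15.3 to 54.3) after IVM and 26.1 CPM (15.8 to 40.9) after CNP_IVM.

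**Figure D4:**
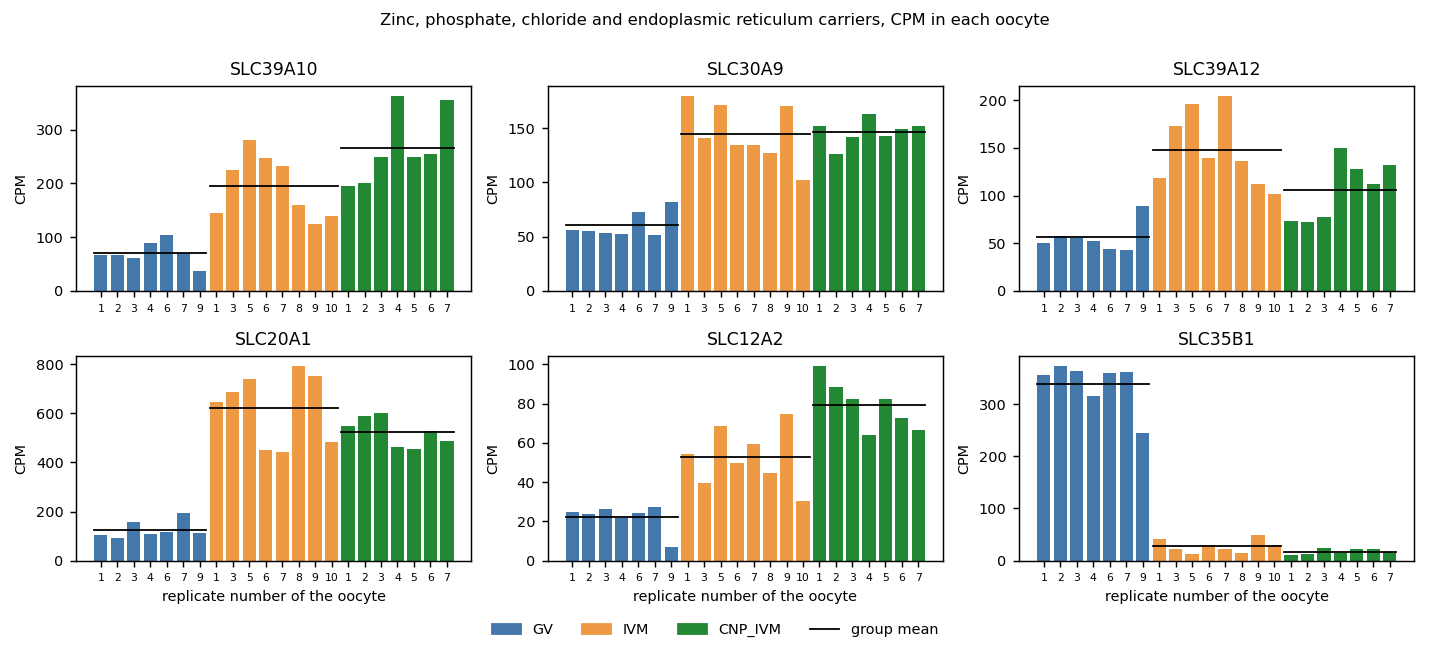
CPM of 6 carrier genes (y axis, from 0) in each oocyte (x axis, replicate number), coloured by group, with a black line at the group mean. SLC39A10, SLC30A9, SLC20A1 and SLC12A2 are higher in every metaphase II oocyte than in every GV oocyte, while SLC35B1 is 244 to 373 CPM in GV and at most 48.6 CPM elsewhere.

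SLC20A1, the sodium-phosphate cotransporter PiT1, was at 112 CPM (90.4 to 195) in GV oocytes, 665 CPM (442 to 795) after IVM and 528 CPM (456 to 604) after CNP_IVM, the groups did not overlap with GV, and the log2 differences were 2.29 and 2.05. Pooled, it had 28338 reads, or 128 CPM (95% Poisson interval 126 to 129) in GV and 167040 reads, or 632 CPM (95% Poisson interval 629 to 635) in IVM. SLC17A5, which lets sialic acid out of lysosomes, was at 17.03 CPM (8.60 to 79.7) in GV oocytes, 47.8 CPM (35.2 to 85.2) after IVM and 36.4 CPM (26.6 to 55.2) after CNP_IVM. Of the 9 genes of this class, 3 were at least 2-fold higher and 2 lower after IVM (2 and 1 without GV replicate 9), and its median of -0.68 turned to -0.07 with quantile normalization.

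Chloride enters cells with sodium and potassium through SLC12A2 (NKCC1) and leaves with potassium through SLC12A5 (KCC2). SLC12A2 was at 24.2 CPM (7.03 to 27.1) in GV oocytes, 51.9 CPM (30.2 to 74.5) after IVM and 82.1 CPM (63.8 to 99.3) after CNP_IVM, every metaphase II oocyte was above every GV oocyte, and the log2 differences were 1.21 and 1.79. SLC12A5 was at 106 CPM (64.4 to 234) in GV oocytes, 30.3 CPM (18.5 to 108) after IVM and 25.4 CPM (17.5 to 52.3) after CNP_IVM, with log2 differences of -1.49 and -2.03 and no overlap between CNP_IVM and GV. Its top GV value was that of replicate 9, and the other GV oocytes held 64.4 to 160 CPM. SLC12A8 was at 20.97 CPM (14.98 to 24.2) in GV oocytes, 3.60 CPM (1.98 to 20.8) after IVM and 1.23 CPM (0.525 to 2.48) after CNP_IVM, with a single high IVM value, that of replicate 8. Over the 7 genes of the class, 1 was at least 2-fold higher and 4 lower in each comparison with GV. Without GV replicate 9 the counts after IVM were 1 and 3. The class medians were -1.08 after IVM (-0.56 without GV replicate 9) and -2.03 after CNP_IVM (-1.67 without it).

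Acid and base carriers set the pH of the cell. The sodium-bicarbonate cotransporter gene SLC4A7 was at 21.5 CPM (17.5 to 31.5) in GV oocytes, 47.1 CPM (30.2 to 68.9) after IVM and 48.7 CPM (39.3 to 57.7) after CNP_IVM, with log2 differences of 0.97 and 1.005 (0.97 without GV replicate 9) at the edge of 2-fold. SLC4A2, the chloride-bicarbonate exchanger AE2, was at 5.04 CPM (2.03 to 49.5) in GV oocytes, 0.547 CPM (0 to 2.67) after IVM and 0.158 CPM (0 to 0.890) after CNP_IVM, with differences of -2.75 (-1.79 without GV replicate 9) and -3.26 (-2.29 without GV replicate 9). SLC26A4, the anion exchanger pendrin, was at 18.4 CPM (0 to 21.2) in GV oocytes, 28.9 CPM (18.2 to 44.6) after IVM and 33.95 CPM (29.4 to 80.7) after CNP_IVM, with CNP_IVM replicate 7 at the top. Of the 19 acid and base carriers, 2 were at least 2-fold higher and 4 lower after IVM, and 3 higher (1 without GV replicate 9) and 4 lower after CNP_IVM.

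Calcium is pumped out in exchange for sodium by SLC8A1 (NCX1) at the plasma membrane and leaves mitochondria through SLC8B1. SLC8A1 held 125 CPM (98.3 to 156) in GV oocytes, 119 CPM (71.9 to 215) after IVM and 98.1 CPM (67.5 to 134) after CNP_IVM, with differences of 0.01 and -0.32. SLC8B1 was at 23.1 CPM (0 to 35.1) in GV oocytes, 5.94 CPM (1.10 to 10.5) after IVM and 3.44 CPM (2.84 to 5.97) after CNP_IVM, with log2 differences of -1.77 and -2.29; it was at 0 in GV replicate 9, and the other GV oocytes, at 19.9 to 35.1 CPM, lay above all others. SLC24A2, a potassium-dependent calcium exchanger, was at 16.3 CPM (13.1 to 29.4) in GV oocytes, 20.9 CPM (9.18 to 39.6) after IVM and 5.10 CPM (2.43 to 9.82) after CNP_IVM, and its difference of CNP_IVM against IVM was -1.69. The sodium pump drives most of these carriers. Its subunit ATP1B1 was at 18.1 CPM (14.3 to 53.6) in GV oocytes, 55.03 CPM (43.1 to 72.4) after IVM and 50.5 CPM (32.9 to 85.6) after CNP_IVM. ATP1B3 was at 42.3 CPM (35.9 to 97.6) in GV oocytes, 30.7 CPM (14.6 to 53.4) after IVM and 13.5 CPM (9.91 to 20.6) after CNP_IVM. The regulator FXYD6 was at 66.2 CPM (52.2 to 92.4) in GV oocytes, 24.3 CPM (7.59 to 42.96) after IVM and 13.1 CPM (8.19 to 17.9) after CNP_IVM. ATP1B1 had differences of 1.32 (1.69 without GV replicate 9) and 1.26 (1.63 without GV replicate 9), and FXYD6 of -1.54 and -2.29. Of the 5 pump genes past the filter, 1 was at least 2-fold higher and 1 lower after IVM (2 lower without GV replicate 9), and 1 higher and 3 lower after CNP_IVM.

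Vitamin and choline carriers included the gene with the highest log2 difference of all 188 in both comparisons with GV. SLC44A5, a choline transporter-like protein, was at 17.7 CPM (0.109 to 19.95) in GV oocytes, 103 CPM (80.1 to 152) after IVM and 85.3 CPM (46.998 to 130.2) after CNP_IVM, with log2 differences of 2.75 and 2.36. Its GV values were 15.4 to 19.95 CPM without replicate 9, which held 0.109 CPM. SLC19A2, the thiamine transporter THTR1, was at 18.5 CPM (15.6 to 29.8) in GV oocytes, 80.7 CPM (48.2 to 198) after IVM and 53.5 CPM (35.2 to 74.2) after CNP_IVM, again with every metaphase II oocyte above every GV oocyte and log2 differences of 2.10 and 1.38. SLC19A1, the reduced folate carrier, was at 5.01 CPM (1.85 to 32.7) in GV oocytes, 0 CPM (0 to 2.92) after IVM and 0 CPM (0 to 0.340) after CNP_IVM; the top value was GV replicate 9 and the other GV oocytes held 1.85 to 6.77 CPM. The riboflavin transporter gene SLC52A2 was at 41.3 CPM (28.5 to 63.1) in GV oocytes, 36.2 CPM (5.65 to 96.1) after IVM and 16.9 CPM (8.60 to 35.8) after CNP_IVM. In this class of 14 genes, 4 were at least 2-fold higher and 4 lower after IVM, and 4 and 5 after CNP_IVM.

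The organic ion class had the lowest class median for IVM against GV, and for CNP_IVM against GV only the SLC12 class, at -2.03, was lower. Without GV replicate 9 that order turned, with -1.67 for SLC12 and -1.97 for organic ions. Of the 12 organic ion genes, 2 were at least 2-fold higher and 7 lower after IVM, and 2 higher and 9 lower after CNP_IVM (0 and 8 without GV replicate 9), and both medians, -1.68 and -2.001, stayed below zero under the other scalings. Among these genes SLC22A11, SLC22A15 and SLC22A31 reached 1 CPM in no IVM or CNP_IVM oocyte. They passed the filter through GV oocytes alone, so being lower after culture was set by how they were chosen. SLC22A11, an organic anion transporter, was at 16.4 CPM (11.7 to 23.8) in GV oocytes, 0.323 CPM (0 to 0.788) after IVM and 0.0574 CPM (0 to 0.665) after CNP_IVM. SLC47A2, a toxin extrusion carrier, was at 15.2 CPM (8.40 to 43.3) in GV oocytes, 0.624 CPM (0 to 2.43) after IVM and 0.872 CPM (0 to 1.23) after CNP_IVM. SLC22A5 (OCTN2), which imports carnitine for fatty acid oxidation, was at 29.9 CPM (26.4 to 53.8) in GV oocytes, 8.81 CPM (2.95 to 13.7) after IVM and 3.32 CPM (1.31 to 6.45) after CNP_IVM. For SLC47A2 and SLC22A5 no metaphase II oocyte overlapped the GV oocytes. Nor did any for SLC22A11, but that gene passed the filter through GV oocytes alone. Log2 differences of SLC22A11, SLC47A2 and SLC22A5, in that order, were -3.75, -3.40 (-3.09 without GV replicate 9) and -1.84 after IVM. After CNP_IVM they were -3.87, -3.63 (-3.31 without GV replicate 9) and -2.90. SLC10A3, an orphan of the bile acid family, was at 15.1 CPM (8.37 to 35.8) in GV oocytes, 17.97 CPM (3.12 to 41.6) after IVM and 2.69 CPM (2.01 to 6.87) after CNP_IVM, and its difference of CNP_IVM against IVM was -2.12. In IVM replicates 5, 6 and 7 it held 3.12, 7.91 and 5.61 CPM, the 3 lowest of the group.

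The SLC35 family moves nucleotide sugars and ATP into the Golgi and the endoplasmic reticulum, where proteins such as those of the zona pellucida are glycosylated. Its 22 genes had 4 at least 2-fold higher and 6 lower after IVM (3 and 6 without GV replicate 9). After CNP_IVM 7 were higher and 8 lower (5 and 7 without GV replicate 9). SLC35B1, which exchanges ATP for ADP across the endoplasmic reticulum membrane, was at 359.8 CPM (244 to 373) in GV oocytes, 26.2 CPM (12.4 to 48.6) after IVM and 15.8 CPM (10.8 to 24.8) after CNP_IVM, with log2 differences of -3.57 and -4.21. Pooled, it had 74563 reads, or 336 CPM (95% Poisson interval 334 to 339) in GV and 4543 reads, or 17.3 CPM (95% Poisson interval 16.8 to 17.8) in CNP_IVM. SLC35F4, an orphan, was at 27.6 CPM (19.6 to 64.9) in GV oocytes, 7.35 CPM (4.89 to 10.5) after IVM and 4.26 CPM (2.35 to 14.6) after CNP_IVM.

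The CMP-sialic acid carrier gene SLC35A1 and the UDP-N-acetylglucosamine carrier gene SLC35A3 were higher at metaphase II. SLC35A3 was at 12.1 CPM (8.45 to 16.3) in GV oocytes, 46.8 CPM (34.2 to 66.7) after IVM and 40.99 CPM (34.3 to 56.1) after CNP_IVM, with log2 differences of 1.92 and 1.81 and no overlap with GV. SLC35A1 was at 52.3 CPM (6.92 to 70.3) in GV oocytes, 157 CPM (94.7 to 184) after IVM and 120.02 CPM (66.7 to 164) after CNP_IVM, with differences of 1.54 and 1.21; its row overlaps RARS2. SLC35E3, an orphan, was at 167 CPM (112 to 218) in GV oocytes, 308 CPM (214 to 449.7) after IVM and 365 CPM (273 to 393) after CNP_IVM. By organelle, 21 carriers of the Golgi and endoplasmic reticulum had 4 genes (19.05%) at least 2-fold higher and 7 (33.3%) lower after IVM. These shares were near the 15.9% and 33% of all genes. The 16 carriers of lysosomes and endosomes had 2 (12.5%) higher and 7 (43.75%) lower, and the other 151 genes had 25 (16.6%) and 41 (27.2%).

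**Figure D5:**
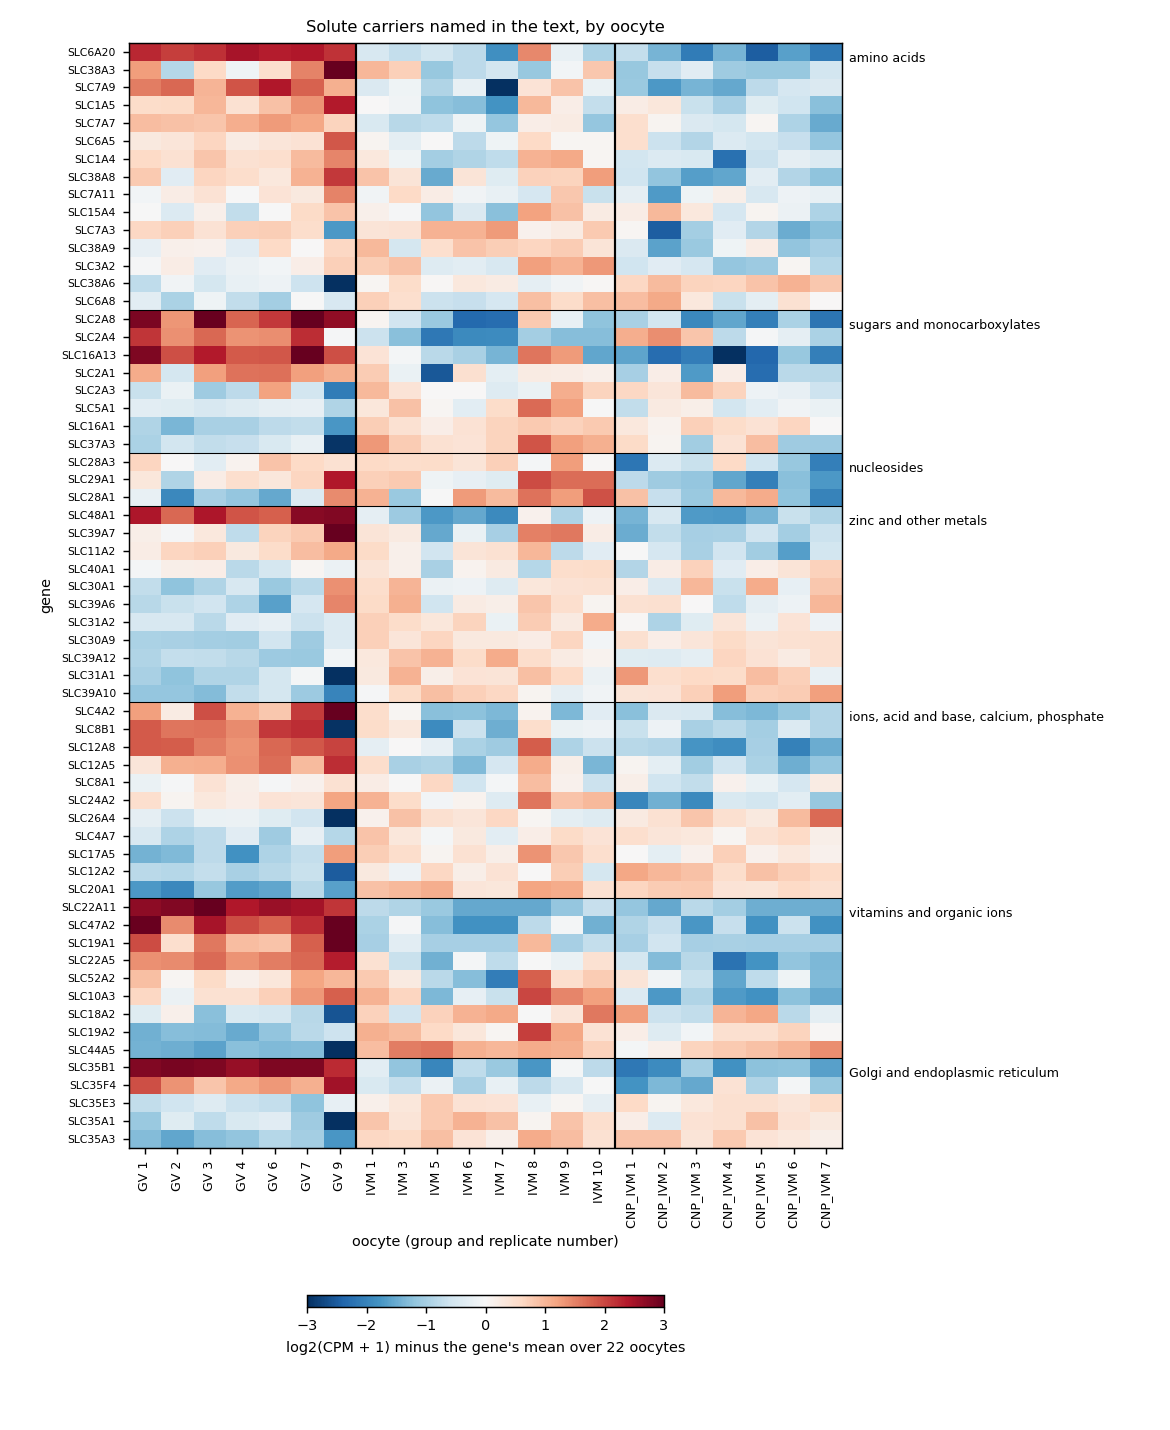
Heat map of the 62 carrier genes named in the text (rows, grouped by substrate) over 22 oocytes (columns, by group and replicate number). Colour is log2(CPM + 1) minus the gene's mean over all oocytes, cut at 3 either way: GV oocytes part from metaphase II oocytes, and GV replicate 9 departs from its group in many rows.

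Between the cultures, 24 of the 188 genes were at least 2-fold lower in CNP_IVM than in IVM oocytes, against 14.8% of all genes, and 1 was higher, SLC2A4. The median log2 difference was -0.34, against -0.28 for all genes. The share lower was thus near that of all genes, and with trimmed-mean scaling the counts were 12 lower and 4 higher. Leaving out IVM replicates 5, 6 and 7, the IVM oocytes with the fewest genes at 1 CPM, gave 44 lower and 2 higher, against 23.1% and 2.49% of all genes, so the number lower rests on which IVM oocytes are taken, for the carriers as for all genes. In 1 gene every CNP_IVM oocyte was above every IVM oocyte and in 2 every one was below, the genes SLC38A6, SLC7A3 and SLC29A1 described above. Nucleoside carriers had 3 of 5 genes at least 2-fold lower, the SLC3 and SLC7 exchangers 3 of 12 and the SLC12 cotransporters 3 of 7, while none of the 22 SLC35 genes was.

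The median spread between oocytes was slightly wider for carriers than for genes at large, which were not matched to them for level. The part of level in this was not tested. Over genes with a group mean of at least 10 CPM, the median coefficient of variation was 34.9% in GV (23.7% without replicate 9), 36.3% in IVM and 31.2% in CNP_IVM oocytes. Over all genes at that level it was 32.0%, 31.9% and 25.6%. Without replicate 9 it was 19.2% in GV, over genes chosen again by their mean without that oocyte. The 23.7% of the carriers kept the genes chosen with replicate 9 included, so these values without it are not to be compared. The rule reached genes present in only a few oocytes: SLC22A31, SLC2A9, SLC39A13, SLC3A1, SLC43A1 and SLC44A4 were at 1 CPM in exactly 6 oocytes, and SLC16A5, SLC36A2, SLC5A8 and SLC6A7 in 5, just outside it. Of these, SLC22A31 and SLC44A4 reached 1 CPM in GV oocytes alone, so the filter took them for being higher there.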

How the data were processed

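The deposited table, of values named TPM, holds CPM: in every library all values were whole multiples of 1 step (100% of values gave whole reads, tolerance 0.01), so the authors' scaling was to the library total and did not use gene length. Per the submitters' processing notes the tools included HISAT2 2.2.1 and featureCounts 2.0.1, with Trim Galore 0.6.7, FastQC and edgeR, and the genome was the mouse build GRCm39, although the rows carry cattle symbols; strand in counting is not given in the sources used here, and a strand-blind count cannot separate overlapping genes. Libraries were made with SMART-Seq v4, per the labels' protocols, so that a level is a share of a poly(A)-primed library: RNA amount, tail length and composition cannot be told apart. No coordinates are given. Of the 188 genes, 186 matched current and 2 older symbols of the RefSeq table (ARS-UCD2.0), in which 77 overlap another gene.

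Of 29 labelled samples, 22 were in the table (7 of 9 GV, 8 of 10 IVM, 7 of 10 CNP_IVM), and 7 were not analysed here. No column was left over. No pair of libraries of a group were copies (smallest chi-square per degree of freedom 38.0, genes with at least 20 reads). Because each group counts as 1 sample, no model was fitted and no count test was run on the recovered reads; log2 differences use a pseudocount of 1 CPM, which understates those of low genes, and at least 2-fold is the only call. Poisson intervals (95%) used pooled reads. The steps were tested on simulated data. Python 3.11.15, numpy 2.4.6, pandas 2.3.3, scipy 1.17.1 and matplotlib 3.10.9 were used.

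The members, lists and rules were chosen with earlier results of these data known. The rule for named genes took, among members whose mean in either group reached 10 CPM, the 8 highest and 8 lowest differences per comparison, up to 4 genes per class, the member of each class with the highest mean, and a fixed list; 62 of the 84 members it gave are named, picked after their values were seen, and the class of SLC18B1, SLC51A and SLC4A1AP was corrected after the table was seen. Genes of the partner lists were named the same way, and a few genes are not reported here. Alternatives were other scalings, pseudocounts, filters, medians for means, and leaving out oocytes.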

Additional observations from a re-analysis of the deposited data

Results flagged for a closer look

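A single oocyte lay far from the others of its group, by the ratio of its gap to the group's range, in 37 of 189 groups of values examined (62 genes and their sum in 3 groups). For independent, normally distributed values the cut would flag about 1 in 20 groups. That rate does not apply here, since the groups share the same oocytes and CPM values need not be normal. GV replicate 9, whose treatment label departs from its title, was the oocyte in 23 of the 37 flagged.

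In that oocyte 17 genes were the highest of the GV group. Among amino acid carriers these were SLC7A11 at 13.1 CPM (others 3.73 to 5.78), SLC1A5 at 308 CPM (others 81.4 to 152), SLC1A4 at 40.3 CPM (others 19.4 to 27.8) and SLC6A5 at 61.0 CPM (others 19.5 to 25.8). The amino acid carriers also included SLC38A8 at 223 CPM (others 39.8 to 105) and SLC38A3 at 42.8 CPM (others 0.217 to 5.17). Among nucleoside and zinc carriers these were SLC28A1 at 192 CPM (others 17.9 to 60.9), SLC29A1 at 152 CPM (others 14.5 to 44.4), SLC39A12 at 89.5 CPM (others 43.0 to 57.1) and SLC39A7 at 54.8 CPM (others 1.01 to 4.82). The zinc carriers also included SLC39A6 at 16.9 CPM (others 1.13 to 3.57) and SLC30A1 at 6.68 CPM (others 0.290 to 1.14). Among ion and vitamin carriers these were SLC4A2 at 49.5 CPM (others 2.03 to 9.91), SLC24A2 at 29.4 CPM (others 13.1 to 17.8) and SLC17A5 at 79.7 CPM (others 8.60 to 19.8). The others were SLC19A1 at 32.7 CPM (others 1.85 to 6.77) and SLC22A5 at 53.8 CPM (others 26.4 to 34.2). In 6 genes the same oocyte was the lowest, with SLC7A3 at 216 CPM (others 962 to 1188), SLC38A6 at 0.654 CPM (others 15.5 to 25.4), SLC5A1 at 13.7 CPM (others 18.8 to 22.0) and SLC12A2 at 7.03 CPM (others 21.9 to 27.1), and with SLC26A4 at 0 CPM (others 15.03 to 21.2) and SLC44A5 at 0.109 CPM (others 15.4 to 19.95).

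IVM replicate 8 was the highest of its group for SLC6A20 at 143 CPM (others 13.9 to 44.6), SLC12A8 at 20.8 CPM (others 1.98 to 5.24) and SLC17A5 at 85.2 CPM (others 35.2 to 58.3), and for SLC19A1 at 2.92 CPM (others 0 to 0.616), SLC19A2 at 198 CPM (others 48.2 to 105) and SLC52A2 at 96.1 CPM (others 5.65 to 47.7). Its 188 carrier genes summed to 7421 CPM, where the other 7 IVM oocytes held 5996 to 6669.8 CPM.

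The other 7 were SLC1A4 in CNP_IVM replicate 4 at 2.16 CPM (others 8.58 to 11.3), SLC6A5 in CNP_IVM replicate 1 at 23.2 CPM (others 6.69 to 11.8), SLC2A1 in GV replicate 2 at 3.88 CPM (others 13.5 to 20.9) and SLC2A3 in GV replicate 6 at 8.81 CPM (others 0 to 2.72), and SLC28A3 in CNP_IVM replicate 4 at 22.2 CPM (others 2.40 to 10.4), SLC26A4 in CNP_IVM replicate 7 at 80.7 CPM (others 29.4 to 47.3) and SLC19A1 in CNP_IVM replicate 2 at 0.340 CPM (others 0 to 0.0257). The reason for these values was not tested.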

How the results depend on the processing

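With quantile normalization the genes at least 2-fold higher and lower numbered 54 and 34 for IVM against GV and 62 and 42 for CNP_IVM against GV, and the median differences turned to 0.20 and 0.21; between the cultures 8 were higher and 9 lower, with a median of -0.0023. With trimmed-mean factors the median for CNP_IVM against GV was -0.27, and between the cultures 4 were higher and 12 lower, with a median of -0.12; the summed CPM was 4453 in GV and 5620 in CNP_IVM, and 4815 and 5329 with quantile normalization. With a pseudocount of 5 CPM the counts were 16 and 32, 15 and 47, and 0 and 9 in the order above, and the median for CNP_IVM against GV was -0.31. With 0.1 CPM that median was -0.92 and the counts between the cultures were 9 and 44. Among genes with a mean of at least 5 CPM, 25 and 39 were lower than in GV, the medians were 0.18 and -0.11 and the GV sum was 5054 CPM. With medians over oocytes 3 genes were higher in CNP_IVM than in IVM.

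Leaving out single oocytes moved the counts for IVM against GV between 26 and 35 higher and 51 and 60 lower (median -0.46 to -0.29), for CNP_IVM against GV between 20 and 26 higher and 77 and 85 lower (-0.75 to -0.55), and between the cultures between 1 and 3 higher and 19 and 30 lower (-0.38 to -0.24). The sums moved between 5305 and 5415 CPM in GV, 6280.1 and 6484 CPM in IVM and 4529.8 and 4709 CPM in CNP_IVM. Without the 3 IVM oocytes with the fewest genes, a setting chosen after seeing the data, 2 genes were higher and 44 lower between the cultures. Of the 50, 59 and 17 named genes past 2-fold in the 3 comparisons, SLC39A7 alone changed sign, its difference for IVM against GV running from -1.52 to 0.22, the last without GV replicate 9. More of them fell under 2-fold, in the same order 3, 11 and 7 with trimmed-mean factors and 5, 12 and 8 with quantile normalization. With a pseudocount of 5 CPM 12, 8 and 8 did, and with some single oocyte left out 9, 8 and 6. The other alternatives, no filter and leaving out the 4 genes that are not carriers, kept each count within 1.5 times. The cause of these shifts was not tested. No paired analysis was possible because no test was made and the replicate numbers only name oocytes. A description by protein length and promoter content was not run, since no sequences were used.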
